A study of Homo sapiens with 5 samples.

Results

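This account covers 43 genes of DNA replication and E2F control, chosen by name from the 23459 genes of the deposited count table, and follows their messenger RNA after raised JUN. All 43 were found by their Entrez identifiers, and all 43 held enough counts to be among the 13616 genes tested. The cells were MCF10A SAM cells, derivatives of an immortalised human mammary epithelial line that were picked as single clones and carry dCas9-VP64 and MCP-p65-HSF1, which together switch on whichever promoter a guide RNA marks. Both groups carry these activators. The 3 NTC libraries (replicates 1 to 3) carried a non-targeting guide as control, and the 2 sgJUN#1 libraries (replicates 1 and 2) carried 1 guide against the JUN promoter. All cells grew with horse serum, insulin, hydrocortisone, cholera toxin and EGF. Libraries were made with a 3′ end kit, and the values are raw counts per gene, shown here as TMM-scaled CPM (each count divided by its library total and brought to one depth).

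Before a cell copies its DNA, the origin recognition complex (ORC), CDC6 and CDT1 load the MCM2 to MCM7 ring on origins, and CDC45 and the GINS complex turn that ring into an active helicase. Polymerases, the sliding clamp PCNA and its loader RFC, ligase and the enzymes that supply nucleotides then follow. E2F transcription factors, held back by the RB family until cyclin D and cyclin E kinases act, switch on most of these genes at the entry to S phase, so the genes tend to move together with the share of cycling cells. In bulk RNA a smaller share of cells in S phase and less RNA per such cell cannot be told apart.

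Library totals ran from 2455627 to 4988062 counts, and a member held between 8 and 1957 counts in a library, with a median of 102. JUN, the targeted gene, had 91, 89 and 42 counts in NTC and 831 and 742 in sgJUN#1, 3.25 higher on the log2 scale (SE 0.484). JUN was higher in 2 of 2 sgJUN#1 libraries than in any NTC library, but its edgeR adjusted p was 0.0733 with all libraries and 0.00121 without NTC replicate 3. Among markers of the labelled cell type, KRT6A lay between 396.6 and 1284 CPM and the basal keratin KRT5 between 151.1 and 452.1 CPM. LAMB3 lay between 132.7 and 573.9 CPM, while the basal markers KRT14 and TP63 were at most 3.24 and 7.48 CPM. The keratin KRT17 had 0 counts in NTC replicate 1 alone. The groups did not overlap for EPCAM, with 23.6, 7.30 and 23.2 CPM in NTC and 143.4 and 56.3 CPM in sgJUN#1, or for ITGB4, with 118.5, 47.45 and 291.0 CPM in NTC and 26.3 and 26.01 CPM in sgJUN#1, though neither passed the test used below (edgeR adjusted p 0.210 and 0.459). Of the 10 epithelial markers listed, 2 had both sgJUN#1 libraries above every NTC library and 2 had both below. Over all tested genes these shares were 12.2% and 12.8%. NTC replicate 3 stood apart in the genes described here, although its total of 4393252 counts was the second highest. KRT5 and ITGB4 were highest in it, and the replicate number that the study's figure legend gives for this comparison is below the number of NTC libraries in the labels, with no word on which were used. The 6 fibroblast markers summed to 91.8 CPM in it against 25.8 to 55.95 CPM elsewhere. Most of this was DCN, at 87.4 CPM, and COL1A1 and COL1A2 were at 0.883 and 0 CPM there. The 6 immune markers, led by CD14, summed to 29.8 CPM in it against 10.5 to 22.1 CPM elsewhere, with CD3E at 0 counts in all 5 libraries. The 4 endothelial markers summed to between 7.84 and 12.2 CPM. The part of these markers in the results was not tested. Counts and group medians of the members are given with and without NTC replicate 3.

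RefSeq promoter sequence (GRCh38.p14) was found for 37 of the 43 members, and the 250 bases before the start were searched on both strands for the E2F words TTTCCCGC, TTTGGCGC, TTTCGCGC and TTTGCCGC. At least 1 word was present in 15 of 37 members (40.5%), against 2.79% of 27305 promoters of the same length. Among the 16497 promoters whose genes are in the count table the share was 3.66%. These 15 promoters held 20 matches, some of which overlap, and 14 of the 20 began within 100 bases of the start, with a median distance of 54 bases. The CCAAT word, read by NF-Y, was in 56.8% of member promoters, in 33% of all promoters and in 34.5% of those whose genes are in the count table. The further lists described below held these words too. E2F words were in 4 of 10 promoters (40%) of other RB and E2F pathway genes and in 6.25% of 16 mitotic promoters. They were in 2 of 22 promoters (9.09%) of further replication genes. CCAAT was in 40%, 87.5% and 45.5% of the promoters of these lists, in the same order. The AP-1 words TGACTCA and TGAGTCA, to which JUN dimers bind, were in 0 of 37 member promoters and in 0 promoters of the further lists below. They were in 4.16% of all promoters and in 3.33% of those whose genes are in the count table. With shares this small, the 0 says only that these letters are not in the window searched. Promoters of CCNE2, E2F8, GINS4, MCM4, MCM5 and POLD3 were not among the sequences used here.

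The promoters of 5 of the 15 members with an E2F word are printed, picked for the traits named next. MCM6, a subunit of the ring, carries 2 copies of a run in which a word on one strand overlaps another word on the other strand. E2F2 had the highest fold change estimate of the members and TYMS one of the lowest, and PCNA and POLA1 had the highest CPM of their role groups. Each is the gene's 5′ to 3′ strand up to the base before the start, in lower case with the E2F words (either strand) in capitals.
MCM6, chr2:135876444-135876693, minus strand: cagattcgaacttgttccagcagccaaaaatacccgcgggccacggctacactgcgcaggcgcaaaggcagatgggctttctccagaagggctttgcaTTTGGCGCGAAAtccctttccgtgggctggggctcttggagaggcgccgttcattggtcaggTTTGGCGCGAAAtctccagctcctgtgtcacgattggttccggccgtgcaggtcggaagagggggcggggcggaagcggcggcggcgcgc
PCNA, chr20:5126623-5126872, minus strand: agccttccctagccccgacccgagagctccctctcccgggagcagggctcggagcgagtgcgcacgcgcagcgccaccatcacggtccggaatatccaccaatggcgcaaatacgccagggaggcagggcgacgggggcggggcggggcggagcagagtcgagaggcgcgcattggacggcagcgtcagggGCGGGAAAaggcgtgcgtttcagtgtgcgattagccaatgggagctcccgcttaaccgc
E2F2, chr1:23531234-23531483, minus strand: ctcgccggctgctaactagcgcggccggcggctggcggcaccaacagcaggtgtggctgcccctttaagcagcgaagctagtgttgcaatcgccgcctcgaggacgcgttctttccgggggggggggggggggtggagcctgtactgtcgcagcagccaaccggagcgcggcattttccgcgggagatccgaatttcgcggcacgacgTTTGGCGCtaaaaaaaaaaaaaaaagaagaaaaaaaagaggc
TYMS, chr18:657403-657652, plus strand: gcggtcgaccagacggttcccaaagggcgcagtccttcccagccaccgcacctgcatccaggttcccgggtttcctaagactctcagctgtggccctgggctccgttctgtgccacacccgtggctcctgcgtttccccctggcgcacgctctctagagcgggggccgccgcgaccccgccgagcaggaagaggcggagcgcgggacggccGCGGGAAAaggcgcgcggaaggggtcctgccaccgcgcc
POLA1, chrX:24693668-24693917, plus strand: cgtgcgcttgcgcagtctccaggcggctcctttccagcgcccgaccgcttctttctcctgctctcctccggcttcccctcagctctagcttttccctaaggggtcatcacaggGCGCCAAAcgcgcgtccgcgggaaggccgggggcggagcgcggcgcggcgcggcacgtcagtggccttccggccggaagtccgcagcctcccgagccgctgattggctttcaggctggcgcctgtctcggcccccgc
The words began 59 bases before the start in PCNA, 42 bases before it in E2F2, 39 in TYMS and 137 in POLA1. Members with and without a word had like estimates. Only the exact words were searched, so promoters counted as without a word can hold close variants, as those of CDC6 and CDC45 do. The median log2 fold change was 0.36 over the 15 members with a word and 0.35 over the 22 without one, and 0.04 and 0.09 without NTC replicate 3.

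To ask whether raised JUN changed the expression of replication genes, sgJUN#1 was compared with NTC across all genes. None of the 43 members passed the threshold of an edgeR adjusted p under 0.05 in either direction, where 28 of 13616 tested genes passed (0.206%), 0.0808% higher and 0.125% lower in sgJUN#1. There were again 0 members without NTC replicate 3, against 0.439% of all genes tested. At an unadjusted p under 0.05 there was 1 member, PRIM1, against 8.38% of all tested genes. DESeq2 also called 0 members, against 1.03% of all genes with an adjusted p, and limma-voom 0, against 0.140%. At an unadjusted p under 0.05 DESeq2 had 1 member, against 4.52% of all genes with a p, and limma-voom 2, against 8.34%. The fold change estimates leaned to one side: 40 of 43 members had a log2 fold change above 0, against 49.0% of all tested genes, the median being 0.36 over the members and -0.01 over all tested genes. The lean depended on which library was left out. Without NTC replicate 3 the member median was 0.08, and 28 members were above 0 and 15 below, against 50.3% above 0 over all genes tested in that fit. Without NTC replicate 1 or 2 the median was 0.43 or 0.61, with 42 and 41 members above 0, against 48.9% and 49.3% of all genes. Without sgJUN#1 replicate 1 it was -0.07, with 16 members above 0 and 27 below, against 47.1% above 0 over all genes. Without sgJUN#1 replicate 2 the member median was 0.57.

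The libraries of a group stood apart from each other. Relative to each gene's mean log2 CPM in NTC, the median member stood at 0.25, 0.53 and -0.76 in NTC replicates 1, 2 and 3 and at 0.62 and 0 in sgJUN#1 replicates 1 and 2. NTC replicate 3 was the lowest of the 5 libraries for 41 of 43 members, against 27.5% of all tested genes, and sgJUN#1 replicate 1 was the highest for 29 of 43, against 19.0%. The exceptions to the first count were POLD1, whose lowest library was NTC replicate 2, and CHAF1B, whose lowest was sgJUN#1 replicate 2. The sgJUN#1 libraries straddled NTC replicates 1 and 2, with replicate 1 near or above them and replicate 2 mostly below. Averaged over the members, sgJUN#1 exceeded NTC by 0.38 on the log2 scale, less than the SD of 0.669 among the 3 NTC libraries. Summed over the 43 genes, NTC replicates 1, 2 and 3 held 2545, 2881 and 1212 CPM and sgJUN#1 replicates 1 and 2 held 3405 and 2152 CPM.

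**Figure D1:**
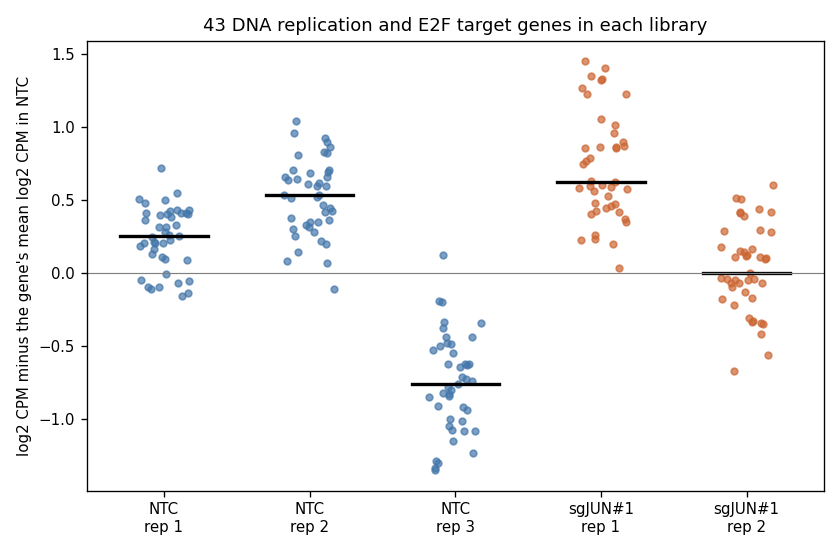
Each point is 1 of the 43 genes in 1 library, as log2 CPM minus that gene's mean log2 CPM in NTC, with NTC in blue, sgJUN#1 in orange and the median as a bar. The medians are 0.25, 0.53, -0.76, 0.62 and 0 from left to right, and the points of NTC replicate 3 lie lowest.

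The origin licensing group, in which MCM10 was counted although it acts after loading, had positive estimates in 11 of 11 members. Its median was 0.43 on the log2 scale, or 0.11 without NTC replicate 3. CDC6, which recruits the ring to origins (GRCh37 chromosome 17, 38444131 to 38460909), had 42.8, 53.5 and 15.7 CPM in NTC and 88.2 and 36.7 CPM in sgJUN#1. Its groups overlapped, since sgJUN#1 replicate 1 was above every control and replicate 2 was below NTC replicates 1 and 2. For CDC6 the log2 estimate was 0.78 (SE 0.529, edgeR adjusted p 0.752), and 0.40 without NTC replicate 3. ORC6, the small subunit of the origin recognition complex (chromosome 16, 46723555 to 46732306), had 55.4, 77.9 and 16.6 CPM in NTC and 106.7 and 55.6 CPM in sgJUN#1, with replicate 2 at the level of NTC replicate 1. The estimate was 0.73 on the log2 scale (SE 0.603, edgeR adjusted p 0.793) and 0.31 without NTC replicate 3. MCM4, the subunit of the ring with the highest CPM of this group, had 131.1, 148.8 and 49.0 CPM in NTC and 199.3 and 131.5 CPM in sgJUN#1. Here too sgJUN#1 replicate 2 stood at the level of NTC replicate 1. For MCM4 the log2 estimate was 0.60 (SE 0.430, edgeR adjusted p 0.761) and 0.25 without NTC replicate 3. The other ring subunits MCM2, MCM3, MCM5, MCM6 and MCM7 had log2 fold changes of 0.37, 0.43, 0.15, 0.54 and 0.30. MCM10, which helps to fire the loaded helicase, had 62.8, 88.4 and 17.9 CPM in NTC and 117.0 and 44.2 CPM in sgJUN#1. ORC1 and CDT1, the remaining licensing genes, had log2 fold changes of 0.16 and 0.25.

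Among CDC45 and the GINS subunits, which complete the active helicase, 5 of 5 estimates were above 0 and the median was 0.48, against 0.08 without NTC replicate 3. GINS3 (chromosome 16, 58328984 to 58440051) had 21.4, 30.4 and 9.49 CPM in NTC and 45.0 and 28.2 CPM in sgJUN#1. One sgJUN#1 library was above all controls and the other just below NTC replicate 2. For GINS3 the log2 estimate was 0.89 (SE 0.425, edgeR adjusted p 0.634), and it was still 0.53 without NTC replicate 3. GINS1, with the highest CPM of this group, had 43.3, 58.8 and 20.8 CPM in NTC and 68.9 and 36.7 CPM in sgJUN#1, which gave an estimate of 0.40 on the log2 scale (SE 0.424). CDC45 itself did not lean to either side, with 24.7, 32.4 and 9.49 CPM in NTC and 29.8 and 13.2 CPM in sgJUN#1. On the log2 scale the difference was 0.02 (SE 0.511, edgeR adjusted p 0.996). GINS2 and GINS4 had log2 fold changes of 0.57 and 0.48.

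PCNA, the sliding clamp that tethers polymerases to DNA (chromosome 20, 5095599 to 5107272), had 184.0, 201.2 and 61.8 CPM in NTC and 238.4 and 141.1 CPM in sgJUN#1. Its sgJUN#1 libraries lay on either side of NTC replicates 1 and 2. For PCNA the log2 estimate was 0.36 (SE 0.475, edgeR adjusted p 0.889), and -0.02 without NTC replicate 3. Of the clamp loader subunits RFC2 to RFC5, RFC3 had the smallest estimate, 0.07, and RFC5 the highest, 0.34. Without NTC replicate 3 the median of this group was -0.05.

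The polymerase genes were the group that varied least among the controls, with a median SD of 0.30 on the log2 scale in NTC, against 0.70 over all 43 members and 0.29 over all tested genes. Their median log2 fold change was 0.24, and 0.17 without NTC replicate 3. POLA1, the catalytic subunit of polymerase alpha (chromosome X, 24711990 to 25015103), had 215.8, 206.0 and 171.7 CPM in NTC and 254.2 and 212.7 CPM in sgJUN#1. All 5 libraries of POLA1 were thus close together. The fitted log2 difference was 0.24 (SE 0.199, edgeR adjusted p 0.790), with a 95% interval of -0.21 to 0.69. PRIM1, the small subunit of the primase that starts each new strand (chromosome 12, 57124222 to 57146158), had 14.0, 17.4 and 12.6 CPM in NTC and 25.5 and 19.2 CPM in sgJUN#1. It was the 1 member of 43 whose groups did not overlap, with sgJUN#1 above NTC, a pattern that 12.2% of all tested genes showed. In 0 members were both sgJUN#1 libraries below every NTC library, against 12.8% of all tested genes. For PRIM1 the log2 estimate was 0.63 (SE 0.269, edgeR adjusted p 0.575, 95% interval 0.03 to 1.24). It was 0.54 without NTC replicate 3, with an interval of -0.09 to 1.16 that holds 0. The end of PRIM1 overlaps NACA on the same strand in the annotation, and reads there can be assigned to either gene. POLD1, the catalytic subunit of polymerase delta, had 4.39, 4.06 and 4.86 CPM in NTC and 5.14 and 4.28 CPM in sgJUN#1, and NTC replicate 3 was its highest control. POLA2, POLD3, POLE and POLE2 had log2 fold changes of 0.18, 0.45, 0.40 and 0.03.

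The 4 nucleotide supply genes had a median of 0.09, with 2 estimates above 0 and 2 below. The median was -0.17 without NTC replicate 3, with 1 above and 3 below. RRM1, the large subunit of ribonucleotide reductase (chromosome 11, 4115937 to 4160162), had 383.9, 359.7 and 174.0 CPM in NTC and 402.5 and 287.9 CPM in sgJUN#1. The estimate was 0.18 on the log2 scale (SE 0.328, edgeR adjusted p 0.927). RRM2, the small and cell cycle regulated subunit, had 168.6, 227.5 and 50.8 CPM in NTC and 292.5 and 177.5 CPM in sgJUN#1, which gave an estimate of 0.67 on the log2 scale (SE 0.576), and 0.25 without NTC replicate 3. The subunits of this enzyme thus differed in how far NTC replicate 3 fell short of the mean of NTC replicates 1 and 2, with a ratio of 0.468 for RRM1 and 0.256 for RRM2. TYMS, thymidylate synthase (chromosome 18, 657653 to 673578), was lower in both sgJUN#1 libraries than in NTC replicates 1 and 2 but not than in replicate 3, with 239.9, 212.9 and 94.9 CPM in NTC and 173.0 and 161.4 CPM in sgJUN#1. On the log2 scale the difference was -0.12 (SE 0.347, edgeR adjusted p 0.958) with all libraries. Without NTC replicate 3 it was -0.44, and it was then the 1 member at an unadjusted p under 0.05 (edgeR adjusted p 0.564), against 8.12% of all genes tested. TYMS overlaps ENOSF1 on the other strand at its end, and the table gave ENOSF1 982, 595 and 552 counts in NTC and 992 and 548 in sgJUN#1 beside 875, 525 and 430 and 841 and 453 for TYMS. With strand handling not stated, the reads of these genes cannot be told apart. TK1, thymidine kinase (chromosome 17, 76170172 to 76183314), had 14.3, 15.01 and 8.61 CPM in NTC and 14.8 and 9.62 CPM in sgJUN#1, which gave an estimate of 0.00 on the log2 scale (SE 0.351).

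FEN1, the flap endonuclease that trims Okazaki fragments (chromosome 11, 61560383 to 61564710), had 84.2, 99.4 and 29.4 CPM in NTC and 147.3 and 67.4 CPM in sgJUN#1. The fitted log2 difference was 0.62 (SE 0.523, edgeR adjusted p 0.797), with sgJUN#1 replicate 2 again under NTC replicates 1 and 2. LIG1, the ligase that seals the fragments, had a log2 fold change of 0.45. FEN1 was at 0.24 and LIG1 at 0.20 without NTC replicate 3. CLSPN, in the group of chromatin and checkpoint genes with a median of 0.23, or -0.03 without NTC replicate 3, is the claspin adaptor of the replication checkpoint (chromosome 1, 36185819 to 36235579). It had 77.1, 102.2 and 24.3 CPM in NTC and 145.6 and 62.4 CPM in sgJUN#1, which gave an estimate of 0.64 on the log2 scale (SE 0.610). CHAF1B, a subunit of the chromatin assembly factor CAF-1 (chromosome 21, 37757690 to 37791313), had 17.0, 17.8 and 8.83 CPM in NTC and 16.5 and 8.55 CPM in sgJUN#1. In CHAF1B sgJUN#1 replicate 2 lay just under NTC replicate 3, and the estimate was -0.16 (SE 0.394, edgeR adjusted p 0.949), the lowest of the 43. CHAF1A, its partner in CAF-1, and UHRF1, which guides maintenance DNA methylation, had log2 fold changes of 0.19 and 0.27.

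The 5 E2F and cyclin E genes had a median of 0.41, and 0.13 without NTC replicate 3. Of the E2F factors, E2F2, an activating factor (chromosome 1, 23832930 to 23857725), had the highest estimate of the 43 members but few counts. It had 12, 16 and 8 counts in NTC and 50 and 12 in sgJUN#1, or 3.29, 6.49 and 1.77 CPM and 10.3 and 4.28 CPM. The estimate of 1.06 on the log2 scale (SE 0.560, edgeR adjusted p 0.664) rested on sgJUN#1 replicate 1, and without that library it was 0.24. It was 0.69 without NTC replicate 3. E2F1, the other activating factor listed, had 6.58, 12.98 and 2.43 CPM in NTC and 11.5 and 7.48 CPM in sgJUN#1, which gave an estimate of 0.48 on the log2 scale (SE 0.571). E2F8, an atypical factor that represses E2F targets, had 10.7, 16.2 and 2.87 CPM in NTC and 12.3 and 6.41 CPM in sgJUN#1. The estimate was 0.02 on the log2 scale (SE 0.606), and its ratio of NTC replicate 3 to the mean of the other controls, 0.213, was the lowest of the 43. CCNE2, a cyclin E, had 45.0, 39.7 and 29.6 CPM in NTC and 55.7 and 36.4 CPM in sgJUN#1, which gave an estimate of 0.29 on the log2 scale (SE 0.267, edgeR adjusted p 0.815). CCNE1 had a log2 fold change of 0.41.

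**Figure D2:**
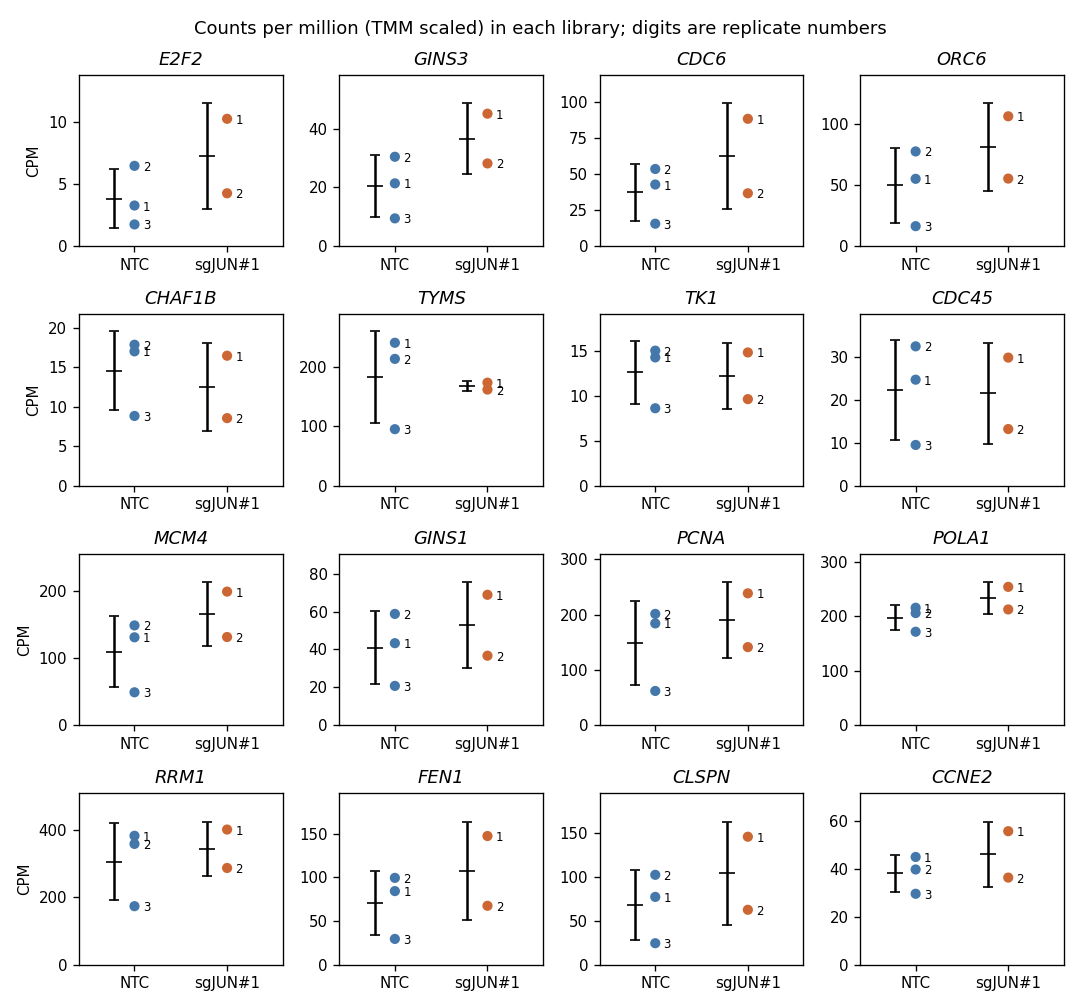
CPM of 16 members in each library, with NTC in blue, sgJUN#1 in orange, the replicate number beside each point and the group mean with its SD (n = 3 and n = 2) to the left. In each panel the groups overlap, and NTC replicate 3 is the lowest point in all panels except CHAF1B, where sgJUN#1 replicate 2 is lowest.

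The precision of these estimates was limited. With all libraries the 95% interval of 12 of 43 members lay within a 2-fold change in either direction. That of 30 members reached above a 2-fold increase and that of 4 below a 2-fold decrease. Without NTC replicate 3 the intervals of 29 of 43 lay within a 2-fold change, while 10 reached above a 2-fold increase and 5 below a 2-fold decrease. The median SE went from 0.400 to 0.305. With the replicate number as a block, the member median was 0.04 and 0 members were called, against 0.756% of all tested genes. Replicate 3 exists only in NTC, so under the block it adds nothing to the group difference. The block fit is thus no check apart from the fit without NTC replicate 3.

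**Figure D3:**
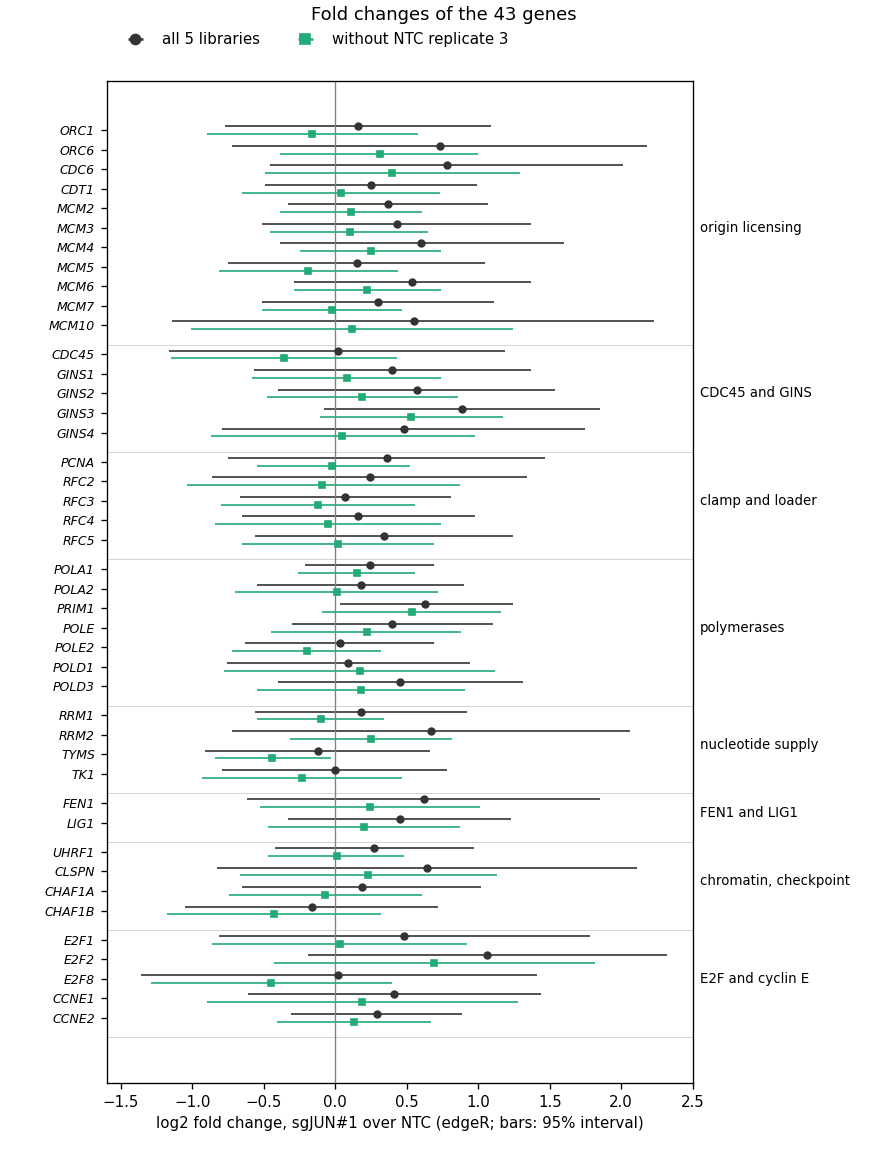
Log2 fold change of sgJUN#1 over NTC for each of the 43 genes, by role, with 95% intervals from edgeR, for all 5 libraries (dark circles) and without NTC replicate 3 (green squares). In the first set 42 of 43 intervals hold 0, PRIM1 being the exception, and in the second 42 of 43, TYMS being the exception.

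Members did not vary to the same degree between libraries of 1 group. The ratio of NTC replicate 3 to the mean of NTC replicates 1 and 2 ran from 0.213 for E2F8, 0.237 for MCM10, 0.248 for E2F1 and for ORC6 and 0.256 for RRM2 to 0.801 for PRIM1, 0.814 for POLA1 and 1.15 for POLD1. Counts were few for POLD1 (10 to 25 in a library), E2F1 (11 to 56) and E2F8 (13 to 60). The median ratio was 0.427, against 1.01 over all tested genes, and 35 of 43 members were under 0.6, against 7.56% of all tested genes. In the other group, 42 of 43 members were higher in sgJUN#1 replicate 1 than in replicate 2, against 49.6% of all tested genes. The log2 difference between these libraries ran from 0.00 for POLE, 0.09 for LIG1 and 0.10 for TYMS to 1.25 for CDC6, 1.37 for CCNE1 and 1.39 for MCM10, with a median of 0.67. Across the 43 members the difference within NTC and the difference within sgJUN#1 had a Pearson r of 0.50 and a Spearman rho of 0.45, against 0.28 and 0.32 across all 13616 tested genes. The 20 mitotic genes described below gave 0.41 and 0.45. No library is shared between the 2 axes, but all points come from the same 5 libraries and genes are not independent replicates.

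**Figure D4:**
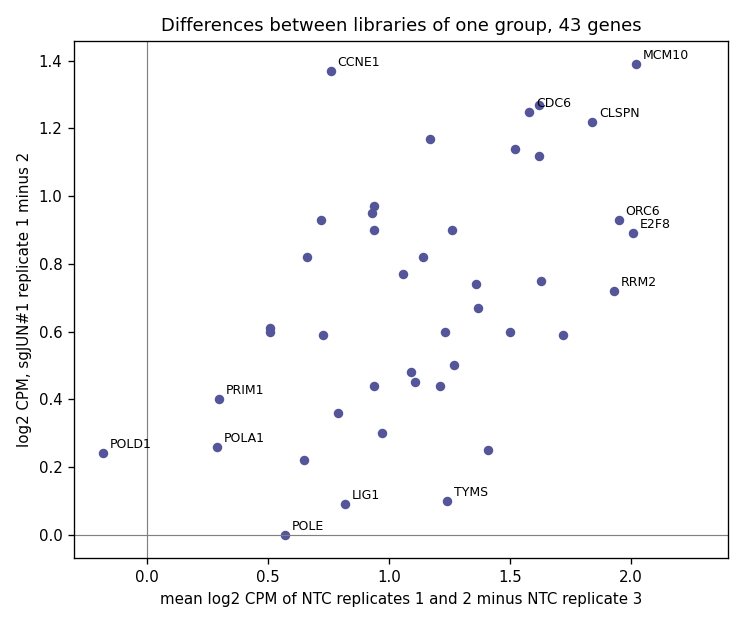
Each point is 1 of the 43 genes, with the mean log2 CPM of NTC replicates 1 and 2 minus NTC replicate 3 on the x axis and log2 CPM of sgJUN#1 replicate 1 minus replicate 2 on the y axis. MCM10 lies highest on both axes, and POLD1, POLA1 and PRIM1 lie lowest on the x axis.

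Other genes of the same pathways, listed by role and not by how they moved, were read from the same fit. Of 26 further replication genes (other ORC, primase, polymerase and RPA subunits, the kinase CDC7 with DBF4, and others), 0 passed the edgeR threshold (0 also at an unadjusted p under 0.05), 21 had estimates above 0 and the median was 0.16. PRIM2, the large primase subunit, had the highest estimate, with 44.4, 103.8 and 39.1 CPM in NTC and 84.7 and 124.7 CPM in sgJUN#1 (log2 fold change 0.76, SE 0.409, edgeR adjusted p 0.680). Its value is uncertain, since near-identical copies of PRIM2 can share its reads. ORC2 had the lowest, at -0.15 (SE 0.212), with 72.9, 78.3 and 71.7 CPM in NTC and 77.8 and 55.95 CPM in sgJUN#1. Of 12 further RB and E2F pathway genes, 0 passed (0 at an unadjusted p under 0.05), and the median was 0.09. CDC25A, the phosphatase that activates CDK2, was highest at 0.59 (SE 0.322), with 59.5, 59.2 and 27.4 CPM in NTC and 80.4 and 64.9 CPM in sgJUN#1. TFDP2, a dimer partner of E2F, was lowest at -0.38 (SE 0.230), with 129.4, 106.7 and 153.2 CPM in NTC and 86.0 and 113.7 CPM in sgJUN#1. NTC replicate 3 was the lowest library for 22 of the 26 and for 6 of the 12.

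A list of 20 mitotic genes gave a comparison with the later part of the cycle. It shared the low level in NTC replicate 3, with a median ratio of 0.433 to NTC replicates 1 and 2, but not the order of the other libraries. Relative to NTC, its mean log2 CPM was 0.33, 0.46 and -0.79 in NTC replicates 1 to 3 and 0.00 and -0.24 in sgJUN#1 replicates 1 and 2, where the 43 replication genes stood at 0.24, 0.52 and -0.76 and at 0.72 and 0.03. The replication mean minus the mitotic mean within a library was -1.96, -1.81 and -1.83 on the log2 scale in NTC and -1.15 and -1.59 in sgJUN#1. In sgJUN#1 both values exceeded the 3 values in NTC, and the group means differed by 0.50 where the SD in NTC was 0.08. The 2 values in sgJUN#1 lay further apart from each other than the 3 in NTC did. This difference between lists was noticed after the values were seen and was not tested. None of the 20 mitotic genes passed the edgeR threshold (1 at an unadjusted p under 0.05), with 16 estimates below 0. FOXM1, a factor that drives mitotic genes, had the highest at 0.10 (SE 0.295), and CDC20, an activator of the anaphase promoting complex, the lowest at -0.80 (SE 0.327, edgeR adjusted p 0.552). CDC20 had 55.9, 60.0 and 32.7 CPM in NTC and 21.4 and 35.6 CPM in sgJUN#1. NTC replicate 3 was the lowest library for 19 of these 20 genes, so leaving it out raises the NTC mean and lowers the estimates. Without it, 20 of 20 estimates were below 0 and 0 genes passed after adjustment. At an unadjusted edgeR p under 0.05 there were then 11, against 8.12% of all genes tested. Since this library was singled out on the genes described here, that shift is not a separate result.

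**Figure D5:**
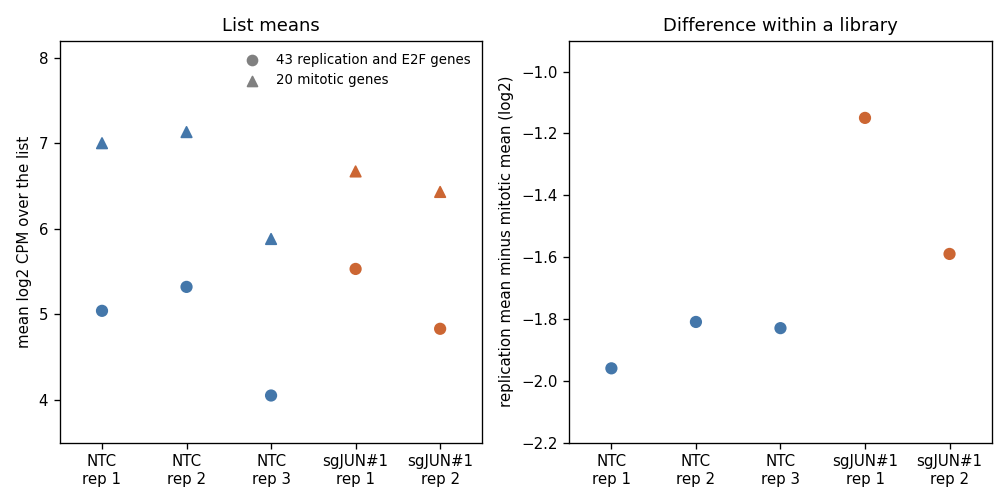
Left, mean log2 CPM over the 43 replication and E2F genes (circles) and the 20 mitotic genes (triangles) in each library, with NTC in blue and sgJUN#1 in orange. Right, the first mean minus the second, which is -1.96, -1.81 and -1.83 in NTC and -1.15 and -1.59 in sgJUN#1; the axes do not start at 0.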

How the data were processed

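Messenger RNA of 3 NTC and 2 sgJUN#1 libraries of MCF10A SAM cells was analysed from 1 table of raw counts per gene, which the authors deposited without normalisation. The submitters' processing notes name cutadapt 4.2, Bowtie2 2.3.5.1 and the build hg19, and the study's methods name countOverlaps as counter for RNA-seq made with another kit, not for these 3′ libraries. Gene annotation, strand, multiple alignments and molecular identifiers were not stated, so reads in overlapping genes can count for either gene. Of the 43 members, 9 overlap another gene of the table within their last 500 bases (CCNE2, CHAF1A, FEN1, GINS1, GINS2, PRIM1, RFC4, RFC5 and TYMS), and their values are uncertain to that extent. Intervals and limits cover the spread between libraries or counting error only, and a count of 0 allows up to 3 counts (0.601 to 1.22 CPM).

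Symbols came from NCBI RefSeq (GRCh38.p14, names only) and positions from GENCODE on GRCh37. The quasi-likelihood test of edgeR 4.0.16 (R 4.3.3) was used with TMM scaling, filterByExpr, robust estimation and group as the only term, and p-values were adjusted by Benjamini-Hochberg over 13616 genes at a threshold of 0.05. Log2 CPM used a prior count of 2. DESeq2 1.42.0 and limma 3.58.1 (voom) were alternatives, beside other scalings and filters, leaving out each library and the replicate number as a block. The edgeR test was checked on simulated data. The study's text calls its replicates biological, while the labels give only their number, so what separates the libraries (culture, day or passage) is not known and p-values measure the spread between these libraries. All 5 libraries in the labels were used. Each pair of libraries differed by more than counting noise (chi-square per degree of freedom of at least 7.62). Pairs with NTC replicate 3 had values of 13.7 to 30.8, and all other pairs 7.62 to 13.

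The members and gene lists were chosen with earlier results of these data known. Values per library are given for JUN, for the 4 members with the highest and the 4 with the lowest log2 fold change, for the member with the highest CPM in each of 8 role groups, for any member past the threshold, and for the highest and lowest gene of each further list. PRIM1, MCM10, POLD1, RRM2, E2F1 and E2F8 were added after their values were seen.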

Additional observations from a re-analysis of the deposited data

How the results depend on the processing

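No member passed the threshold in any of 15 alternatives. The count over all genes, 28 as reported, was 140 with DESeq2, 148 with no filter, 18 under a minimum of 10 counts in each library, and 10 (without NTC replicate 1) to 57 (without NTC replicate 3; 56 without NTC replicate 2) when 1 library was left out. The cause was not tested. JUN passed the threshold at 3.24 on the log2 scale with DESeq2 and at 3.25 with non-robust estimation, and lay between 2.845 and 3.68 when 1 library was left out, passing without NTC replicate 2 or 3.

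When 1 library was left out, the member median ran from -0.074 (without sgJUN#1 replicate 1) to 0.611 (without NTC replicate 2) and the mean log2 difference of the members from -3.81e-05 (without NTC replicate 3) to 0.731 (without sgJUN#1 replicate 2). The replication minus mitotic difference ran from 0.271 without sgJUN#1 replicate 1 to 0.720 without replicate 2. Log2 fold changes that turned sign when 1 library was left out ran from -0.006 to 1.26 for CDC6, -0.744 to 0.200 for CHAF1B, -0.436 to 0.125 for TYMS, -0.372 to 0.252 for TK1, -0.722 to 0.455 for CDC45, -0.142 to 0.768 for GINS1, -0.074 to 0.682 for PCNA, -0.105 to 0.398 for RRM1, -0.065 to 1.063 for FEN1, -0.109 to 1.114 for CLSPN, -0.064 to 0.556 for CCNE2, -0.408 to 0.072 for ORC2 and -0.119 to 0.297 for FOXM1. CDC45 was -0.012 with DESeq2 and -0.003 with library size alone, and TK1 was 0.06 with limma-voom and 0.002 with RLE size factors.

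Replicates 1 and 2 exist in each group, but the labels tie a number to no shared day or culture, and the replicate differences of the groups had a correlation of 0.0146 over 13616 genes, so the numbers were not taken as pairs. With the replicate block 103 genes were called (54 higher, 49 lower) and JUN had 2.82. CDC45 was at -0.429, PCNA at -0.06, RRM1 at -0.124 and FOXM1 at -0.126. The mean log2 difference of the members, taken over replicates 1 and 2 of each group, was -0.000655. NTC replicate 3 has no partner in sgJUN#1, so these estimates largely repeat those without it.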
